A study of Mus musculus with 36 samples.

Results

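Cultured mouse microglia that received TNF, a Smac mimetic, the pan-caspase inhibitor zVAD and the RIPK1 kinase inhibitor Nec-1s (T/S/Z/N) were compared with microglia that received the vehicle DMSO. The comparison asks what is left of the response to T/S/Z when the kinase activity of RIPK1 is blocked. It holds 8 of the 36 libraries of the study, 4 titled TNF/Smac/zVAD/Nec-1s and 4 titled DMSO, paired by their replicate number. All came from C57BL/6 mice aged 2 to 4 days. Their brains were pooled and grown as mixed glia for 12 days, and the cells held by a CD11b selection were replated and treated for 4 h. The same table holds 4 libraries each of Nec-1s alone (N), of T/S/Z without Nec-1s, of TNF given together with 5z-7, which inhibits the kinase TAK1 (T/5z), and of the latter plus Nec-1s (T/5z/N). These serve here only to place the T/S/Z/N values. Of 15385 genes in the table, 10524 had a log2 value of at least 1 in 4 or more of the 24 microglial libraries and were tested.

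When TNF binds its receptor TNFR1, RIPK1 acts first as a scaffold. The ubiquitin ligases cIAP1 and cIAP2 decorate it with ubiquitin chains, which recruit the kinases that switch on NF-kB and the MAP kinases. A Smac mimetic removes the cIAPs, which frees the kinase activity of RIPK1 and also stabilises NIK, the kinase of the noncanonical NF-kB pathway. With caspases blocked by zVAD, active RIPK1 engages RIPK3 and MLKL in the lytic death called necroptosis. Nec-1s blocks the kinase and leaves the scaffold in place.

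Levels are given as deposited, as log2(FPKM + 1), where FPKM is a fragment count scaled to exon length and library size. The deposited values were scaled to the 75th percentile. Changes are differences of these log2 values with limma's standard error (SE), 95% interval and Benjamini-Hochberg adjusted p over all tested genes. A gene is said to have risen or fallen only where its fold change was over 1.5 and its adjusted p was under 0.05. The sources call the 4 replicates biological, and the study's general statement on replicates names single animals or separate litters without saying which holds for these libraries. The p-values measure only the spread between these libraries.

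Read totals were not part of the table. In replicate 4, low values lay on steps worth 1 read, which put the worth of 1 read over 1 kb of exon at 0.0477 FPKM in DMSO and 0.0497 in T/S/Z/N, which is the finest step these values can resolve. The worth of 1 read in replicates 1 to 3 is unknown. Their values had been shifted gene by gene to the means of replicate 4, which left 489 to 1438 negative values in each of their 6 libraries. The cells carried microglial markers. Csf1r, the receptor for macrophage colony-stimulating factor, was at 9.81 to 9.88 in DMSO and 10.05 to 10.16 in T/S/Z/N. Cx3cr1, the fractalkine receptor gene, averaged 7.98 and 7.84. P2ry12 (2.39) and Tmem119 (3.32) were low in DMSO and Siglech was near 0 (0.11). The summed level of the 10 astrocyte markers was 8.75 to 11.3 FPKM in DMSO and 6.28 to 8.11 in T/S/Z/N, against 3300 to 3660 and 3120 to 3660 for the 10 microglial markers. The border macrophage list summed to 910.0 to 962 and 866 to 1120 FPKM, carried by Ms4a7, Pf4 and Mrc1. Fibroblast and pericyte markers summed to 6.69 to 9.12 and 3.70 to 5.83, and endothelial markers to 3.22 to 3.91 and 1.29 to 2.00, both lower with T/S/Z/N. Oligodendrocyte lineage markers stood at 31.3 to 33.4 and 32.0 to 32.7 FPKM, with Mbp, the myelin basic protein gene, at mean log2 values of 4.59 and 4.74. Neuronal markers stayed at or under 2.28 FPKM. Neutrophil markers ranged from 0.0777 to 18.1 FPKM in DMSO and from 0 to 10.9 in T/S/Z/N, and their part in any result was not tested. In bulk RNA, fewer cells of a type and less RNA per cell cannot be told apart.

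T/S/Z/N changed 1481 genes against DMSO, 14.1% of those tested. Of these, 653 rose (6.20% of tested genes) and 828 fell (7.87%). The balance of rises and falls shifted with the handling of weakly expressed genes. Rises were 44.1% of the calls, 54.6% (500 higher and 415 lower) once genes averaging under 3 were left out, and 53.1% (457 and 404) when 5 instead of 1 was added to the FPKM. With Nec-1s alone as the control in place of DMSO, 661 genes were higher (6.28%) and 799 lower (7.59%), 13.9% of tested genes together. Nec-1s alone against DMSO gave 0 called genes (0.00%) by limma, with 892 genes at an unadjusted p under 0.05, of which 15 also passed the fold minimum. The median change over all tested genes was -0.025 on the log2 scale.

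Among the 30 gene lists described here, the share of tested members that rose was over 50% for NF-kB subunits (80.0%), chemokines (71.4%), inflammation-induced enzymes (66.7%), costimulatory molecules (60.0%), NF-kB inhibitors (56.2%) and NRF2 targets (56.2%). The share that fell was highest for genes of the FOXO type (12 of 21) and homeostatic microglial genes (10 of 25). The lists were chosen with earlier results of these data known, so these shares cannot serve as a test. The counts below are descriptions, to be read beside the 6.20% and 7.87% of all tested genes.

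**Figure D1:**
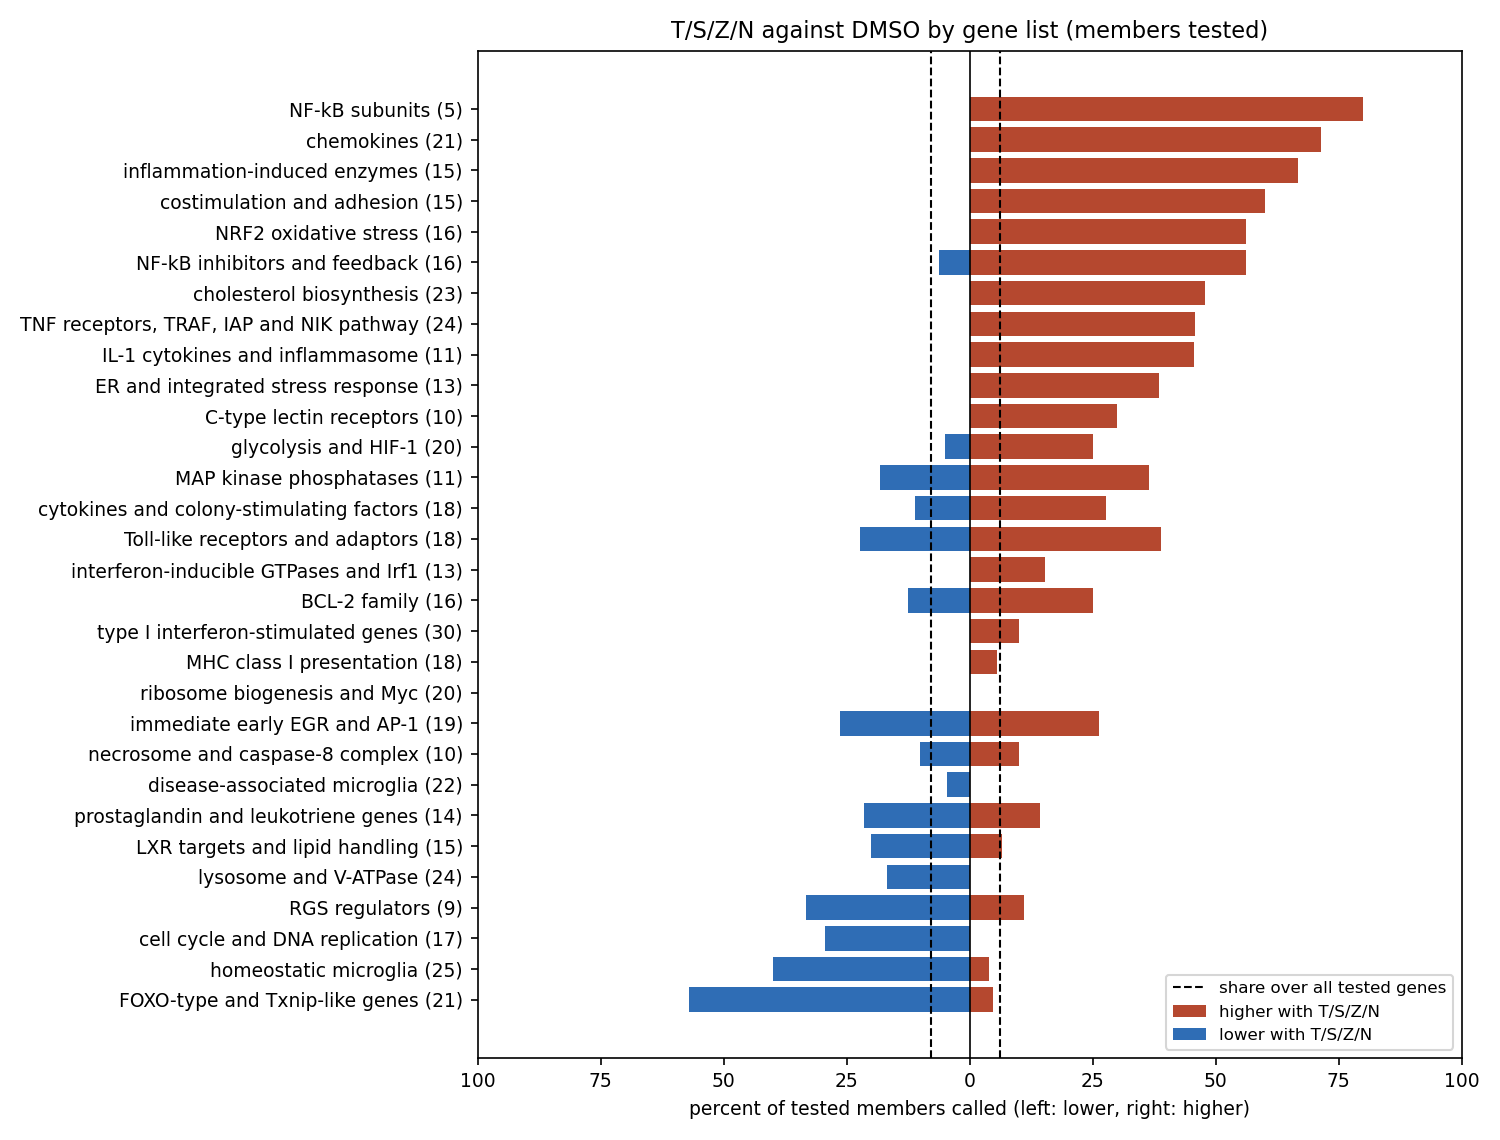
Percent of the tested members of each of 30 gene lists that rose (right, red) or fell (left, blue) with T/S/Z/N against DMSO, with the number of tested members in brackets. Dashed lines mark the shares over all 10524 tested genes, 6.20% higher and 7.87% lower. NF-kB subunits (4 of 5) and chemokines (15 of 21) reach farthest right, and FOXO-type genes (12 of 21) and homeostatic genes (10 of 25) farthest left. The lists were chosen with earlier results of these data known.

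The components of the death machinery itself were looked at first. Ripk1 (chromosome 13, 34002363 to 34037147, GRCm38), the target of Nec-1s, was at 5.25, 5.21, 5.14 and 5.21 in DMSO replicates 1 to 4 and at 5.01, 5.02, 5.04 and 5.01 in T/S/Z/N. The groups did not overlap, as in 50.8% of all tested genes (5346), and the difference of -0.18 (SE 0.0531, limma adjusted p 0.026) was under the fold minimum. Ripk3, which RIPK1 activates in necroptosis, differed by 0.09 (95% interval -0.11 to 0.29) and Mlkl, the executioner that permeabilises the membrane, by -0.07 (-0.25 to 0.11). The deposited annotation marks Ripk1 and Mlkl as confounded, a mark it does not define. Of the 10 genes of the necrosome and caspase-8 complex, 1 rose and 1 fell (10.0% each, beside 6.20% and 7.87% of all tested genes). The risen gene was Cflar, which encodes the caspase-8 inhibitor cFLIP, with a rise of 1.59 (SE 0.10, adjusted p 1.56e-05) against 2.60 without Nec-1s.

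The 12 largest rises were in Ptges, Acod1, Traf1, Clec4e, Cxcl3, Bcl2a1a, Gpr84, Ifi205, Icam1, Socs3, Marcksl1 and Gpr132. In none of them did the DMSO and T/S/Z/N libraries overlap, which the choice of the largest changes makes likely and which held for 50.8% of all tested genes. Ptges, which encodes the inducible prostaglandin E synthase, was at 2.97, 3.07, 3.01 and 2.48 in DMSO and at 8.11, 8.17, 8.29 and 8.44 in T/S/Z/N. It rose by 5.37 (SE 0.134, limma adjusted p 4.67e-07). Without Nec-1s it rose by 6.39, so the level with Nec-1s was 1.02 lower (95% interval of the difference -1.14 to -0.90). Acod1, whose enzyme makes itaconate, was at no more than 4.13 in DMSO and at 8.62 to 8.78 in T/S/Z/N, a rise of 4.89 (SE 0.109) against 5.78 without Nec-1s. Traf1, an adaptor of TNF receptors and a target of NF-kB, stood at 1.70, 1.60, 1.75 and 1.61 in DMSO and at 6.42, 6.48, 6.27 and 6.46 in T/S/Z/N. Its rise of 4.75 (SE 0.0735, adjusted p 1.12e-07) was 0.35 short of the 5.10 seen without Nec-1s (interval -0.49 to -0.21), which is under the fold minimum. With quantile normalization this Traf1 difference was -0.149 (limma adjusted p 0.0827).

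The other large rises kept a high level as well. Clec4e, the Mincle receptor, rose by 4.71 and Gpr84, a receptor for medium-chain fatty acids, by 4.24, against 5.55 and 5.66 without Nec-1s. Icam1, an adhesion molecule, rose by 3.90 (4.21 without Nec-1s), Socs3, a brake on cytokine signalling, by 3.88 (4.64), Marcksl1 by 3.81 (4.53) and Ifi205, an interferon-inducible gene, by 4.17 (5.36). Bcl2a1a, a BCL-2 type survival factor, rose by 4.38 (5.08). With quantile normalization the differences between T/S/Z/N and T/S/Z were -0.06 for Icam1, -0.56 for Socs3, -0.46 for Marcksl1 and -0.43 for Bcl2a1a. As deposited they were -0.32, -0.76, -0.72 and -0.70. Reads of Bcl2a1a and its near-identical copies Bcl2a1b and Bcl2a1d, and of Ifi205 and its family, may be divided among copies, so these values are uncertain. Gpr132, a receptor for lysophospholipids and lactate, behaved otherwise. It was at 1.11, 0.97, 0.92 and 0.69 in DMSO, at 3.93, 3.95, 4.22 and 4.25 with T/S/Z and at 4.75, 4.70, 4.64 and 4.80 with T/S/Z/N. Every library with Nec-1s was above every library without it, by 0.64 on average (interval 0.47 to 0.80, adjusted p 0.000236). This difference was under the fold minimum with median centring (0.56), with 5 in place of 1 in the log (0.53) and without replicate 1 (0.575). In all, 563 genes (5.35% of those tested) were higher with T/S/Z/N than with T/S/Z and 707 (6.72%) were lower, 12.1% together.

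**Figure D2:**
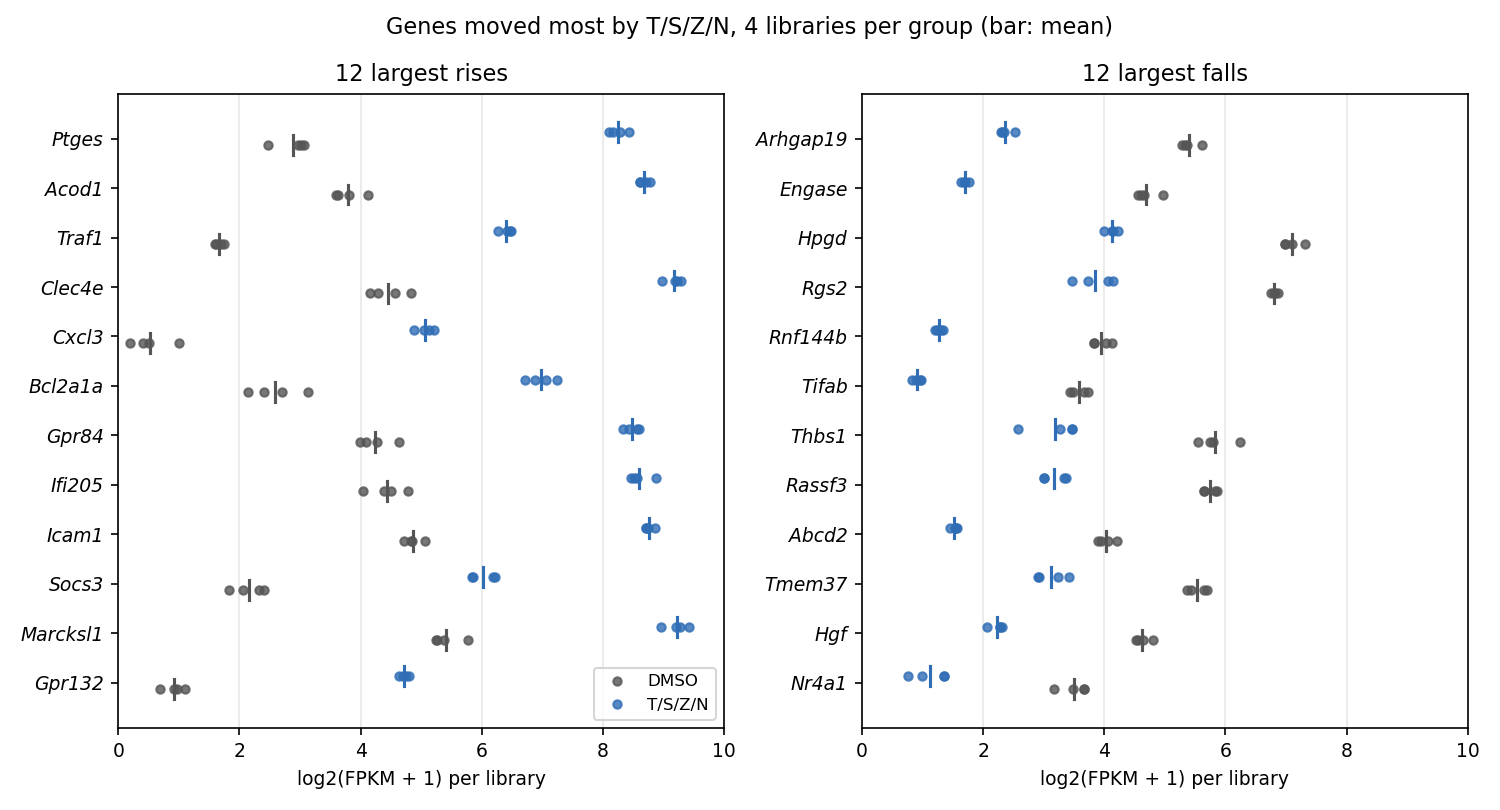
Deposited log2(FPKM + 1) in each DMSO (grey) and T/S/Z/N (blue) library for the 12 largest rises (left) and the 12 largest falls (right), with a bar at the mean of 4. The genes were chosen for their size of change, from Ptges (5.37) to Nr4a1 (-2.38), and the groups stay apart in each, as they do in 50.8% of all tested genes.

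The 12 largest falls were in Arhgap19, Engase, Hpgd, Rgs2, Rnf144b, Tifab, Thbs1, Rassf3, Abcd2, Tmem37, Hgf and Nr4a1. Hpgd, whose enzyme breaks down prostaglandins, was at 6.98, 6.98, 7.10 and 7.31 in DMSO and at 4.22, 4.14, 4.13 and 3.99 in T/S/Z/N, so it fell by 2.97 (SE 0.091, limma adjusted p 8.43e-07). The fall without Nec-1s was 2.69. Ptges and Hpgd, which make and break down prostaglandin E2, stood at opposite ends of the comparison. Tifab, an inhibitor of the TRAF6 adaptor TIFA, was at 3.67, 3.73, 3.43 and 3.49 in DMSO, at 0.70, 0.74, 1.00 and 1.04 with T/S/Z and at 0.89, 0.83, 0.95 and 0.98 with T/S/Z/N. The levels with and without Nec-1s overlapped (difference 0.05, interval -0.15 to 0.25).

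Rgs2, an inhibitor of Gq signalling, went below its T/S/Z level. It was at 6.82, 6.86, 6.80 and 6.75 in DMSO, between 4.65 and 5.27 with T/S/Z and at 4.06, 4.15, 3.73 and 3.46 with T/S/Z/N. Its fall was 2.96 (SE 0.0983, limma adjusted p 9.34e-07) with Nec-1s and 1.95 without, and the difference of -1.01 (interval -1.44 to -0.58) passed the test, though not with ordinary per-gene variance (adjusted p 0.0759). Nr4a1, an immediate early nuclear receptor, was at 3.17, 3.48, 3.66 and 3.66 in DMSO and at 1.36, 1.36, 0.99 and 0.75 in T/S/Z/N, a fall of 2.38 (SE 0.171). With T/S/Z alone its libraries spread from 3.21 to 5.43, and the change against DMSO, 0.64, did not pass (adjusted p 0.0699). It passed with median centring (0.73), quantile normalization (0.69) and without replicate 2 (0.94). Engase (fell by 3.00), Rnf144b (fell by 2.69), Rassf3 (fell by 2.57) and Abcd2 (fell by 2.50), a peroxisomal fatty acid transporter, were further below DMSO without Nec-1s, by 3.63, 3.19, 3.32 and 3.16. Thbs1, which encodes thrombospondin-1, and Hgf, hepatocyte growth factor, fell by 2.64 and 2.39. The undefined confounded mark is on 8 of these 24 genes, namely Gpr84, Icam1, Engase, Hpgd, Rnf144b, Thbs1, Rassf3 and Hgf. If it stands for overlap with another gene, their values may include reads of a neighbour.

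NF-kB induces its own inhibitors. Of 16 tested inhibitors and feedback genes, 9 rose and 1 fell, with a median change of 1.23, against a median of -0.025 over all genes. Nfkbia (chromosome 12, 55489410 to 55492647), which encodes IkB-alpha, was at 5.29, 5.47, 5.62 and 5.41 in DMSO and at 8.60, 8.46, 8.45 and 8.53 in T/S/Z/N. It rose by 3.06 (SE 0.0817, limma adjusted p 5.8e-07), and by 3.71 without Nec-1s. The difference of -0.64 was under the fold minimum with quantile normalization (-0.37). Nfkbie, which encodes IkB-epsilon, rose by 3.06 with Nec-1s and by 3.09 without. Its levels, 6.96, 6.95, 6.86 and 6.85 with Nec-1s and 6.93, 7.07, 6.80 and 6.94 without, overlapped (difference -0.03, interval -0.14 to 0.09). With quantile normalization that difference was 0.19 (limma adjusted p 0.0095). Tnfaip2 (2.79 with and 2.97 without Nec-1s) was close to the pattern of Nfkbie.

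Within the same group, other members were held back. Tnfaip3, which encodes the ubiquitin editor A20, rose by 2.50 with Nec-1s and by 4.55 without, and the difference of -2.06 (interval -2.16 to -1.95) passed the test. Nfkbid and Nfkbiz, nuclear IkB proteins named here after their values were seen, rose by 2.52 and 2.04 with T/S/Z and gave -0.06 and -0.39 with T/S/Z/N. Zc3h12a, the RNase regnase-1, also chosen after its values were seen, rose by 1.57 with T/S/Z and fell by 0.64 with T/S/Z/N, although against Nec-1s alone its difference of -0.47 was under the fold minimum. N4bp1, an RNase that restrains NF-kB and a target of caspase-8, was chosen in the same way and moved the other way. It was at 3.78, 3.74, 3.80 and 3.72 in DMSO, at 3.79, 3.97, 3.89 and 3.74 with T/S/Z and at 4.88, 4.95, 4.96 and 4.80 with T/S/Z/N, a rise of 1.14 (SE 0.0552, limma adjusted p 4.8e-06) against a change of 0.09.

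Of the 5 subunit genes of NF-kB, 4 rose. Nfkb2, the precursor of p52 in the noncanonical pathway, rose by 1.97 (2.08 without Nec-1s) and Relb, the partner of p52, by 1.74 (1.64). Nfkb1 rose by 1.39 and Rela by 0.72, while Rel gave 0.49 and did not pass. The intervals of the difference made by Nec-1s were -0.219 to -0.002 for Nfkb2 and -0.01 to 0.21 for Relb. In the list of TNF receptors, TRAF, IAP and NIK genes, 11 of 24 rose and none fell. Cd40 rose by 3.61, Fas, the death receptor, by 2.44, Tnfsf9 by 2.32 and Birc3, which encodes cIAP2, by 1.95. Map3k14, which encodes NIK, and Birc2, which encodes cIAP1, were chosen after their values were seen. They rose by 1.10 and 0.83 with T/S/Z/N and gave 0.22 and 0.18 with T/S/Z, and the T/S/Z/N level was higher by 0.88 (interval 0.72 to 1.04) and 0.65 (0.50 to 0.80). With median centring the Birc2 difference, 0.58, was under the fold minimum.

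The promoters of some of these genes carry the sequence that NF-kB binds. To show it, the 120 bases before the RefSeq start site (GRCm38.p6) are printed for the IkB genes Nfkbia and Nfkbie and the neutrophil chemokine genes Cxcl1, Cxcl2 and Cxcl3, which kept very different shares of their T/S/Z change. All run 5′ to 3′ along the gene, with matches to the 10-base kB consensus, searched on both strands, in capitals. The spans are chr12:55492648-55492767 (minus strand) for Nfkbia, chr17:45555580-45555699 (plus) for Nfkbie, and on the plus strand chr5:90891125-90891244 for Cxcl1, chr5:90903779-90903898 for Cxcl2 and chr5:90785981-90786100 for Cxcl3.
Nfkbia: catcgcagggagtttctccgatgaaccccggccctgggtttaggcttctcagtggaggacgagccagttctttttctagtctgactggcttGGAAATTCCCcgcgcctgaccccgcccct
Nfkbie: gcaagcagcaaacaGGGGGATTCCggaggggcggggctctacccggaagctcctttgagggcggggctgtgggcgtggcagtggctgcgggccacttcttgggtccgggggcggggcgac
Cxcl1: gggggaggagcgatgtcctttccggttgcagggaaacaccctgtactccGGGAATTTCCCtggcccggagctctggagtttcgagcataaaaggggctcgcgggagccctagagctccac
Cxcl2: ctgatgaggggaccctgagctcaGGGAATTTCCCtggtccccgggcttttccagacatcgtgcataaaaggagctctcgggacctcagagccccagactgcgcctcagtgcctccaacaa
Cxcl3: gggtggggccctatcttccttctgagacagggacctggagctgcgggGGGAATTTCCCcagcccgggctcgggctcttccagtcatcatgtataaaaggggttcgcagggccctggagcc

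In each of the 3 chemokine promoters the capitals are 2 overlapping matches, 71 to 61 bases before the start in Cxcl1, 97 to 87 in Cxcl2 and 73 to 63 in Cxcl3. Over windows of 250 bases before to 50 after the start, the consensus was in 4.51% of 32851 RefSeq promoters and in 521 of the 8183 tested genes that matched one by symbol (6.37%). It was in 67 of the 506 risen genes that matched a promoter by symbol (13.2%), in 45 of 631 fallen genes (7.13%) and in 409 of 7046 genes that were not called. Of the NF-kB inhibitor list, 8 of 13 matched members held it, and of the chemokine list 7 of 15. Among the 12 largest rises only Cxcl3 held it. A match is a description of letters and not a binding site.

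Chemokines recruit leukocytes, and 15 of 21 tested members rose with T/S/Z/N while none fell. The size of the rise differed widely between members. Cxcl3 was at 0.19, 0.41, 1.00 and 0.51 in DMSO, at 6.94, 7.07, 6.92 and 6.96 with T/S/Z and at 5.22, 5.13, 4.89 and 5.05 with T/S/Z/N, a rise of 4.54 (SE 0.163, limma adjusted p 1.22e-06). Cxcl2 was at 2.08, 2.77, 2.41 and 2.12 in DMSO, at 9.26, 9.28, 10.22 and 10.83 with T/S/Z and at 5.39, 5.27, 5.32 and 5.30 with T/S/Z/N, a rise of 2.98 (SE 0.124). Cxcl1 was at -0.04, 0.39, 0.68 and 0.32 in DMSO, at 4.75, 4.61, 5.60 and 6.49 with T/S/Z and at 1.22, 1.32, 0.90 and 1.14 with T/S/Z/N. Its rise of 0.81 (SE 0.158, adjusted p 0.00446) was the smallest of the 3, and its call was lost in the fit over all 24 libraries (adjusted p 0.0599), with ordinary per-gene variance (0.0822) and with 5 in place of 1 in the log (change of 0.23). In the T/S/Z libraries, replicates 3 and 4 of Cxcl1 and Cxcl2 were above replicates 1 and 2, while in T/S/Z/N they were not.

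The macrophage inflammatory proteins lost most of their T/S/Z change. Ccl3 was at 5.39, 5.58, 5.50 and 5.34 in DMSO, at 12.24, 12.16, 11.71 and 12.07 with T/S/Z and at 6.36, 6.38, 6.84 and 7.26 with T/S/Z/N. It rose by 1.26 (SE 0.163, limma adjusted p 0.000572) with Nec-1s and by 6.59 without. Ccl4 rose by 1.33 and 6.88. Ccl2, a monocyte attractant, rose by 1.89 and 5.23, and its call with Nec-1s was lost with ordinary per-gene variance (adjusted p 0.0576). In contrast, Cxcl10, which attracts T cells, rose by 3.45 with and 4.02 without Nec-1s (difference -0.57, interval -1.05 to -0.10), and Ccl22 by 3.22 and 3.00. The Ccl22 levels with Nec-1s, 4.16, 3.69, 4.26 and 4.61, overlapped those without, 3.71, 3.75, 4.04 and 4.33.

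**Figure D3:**
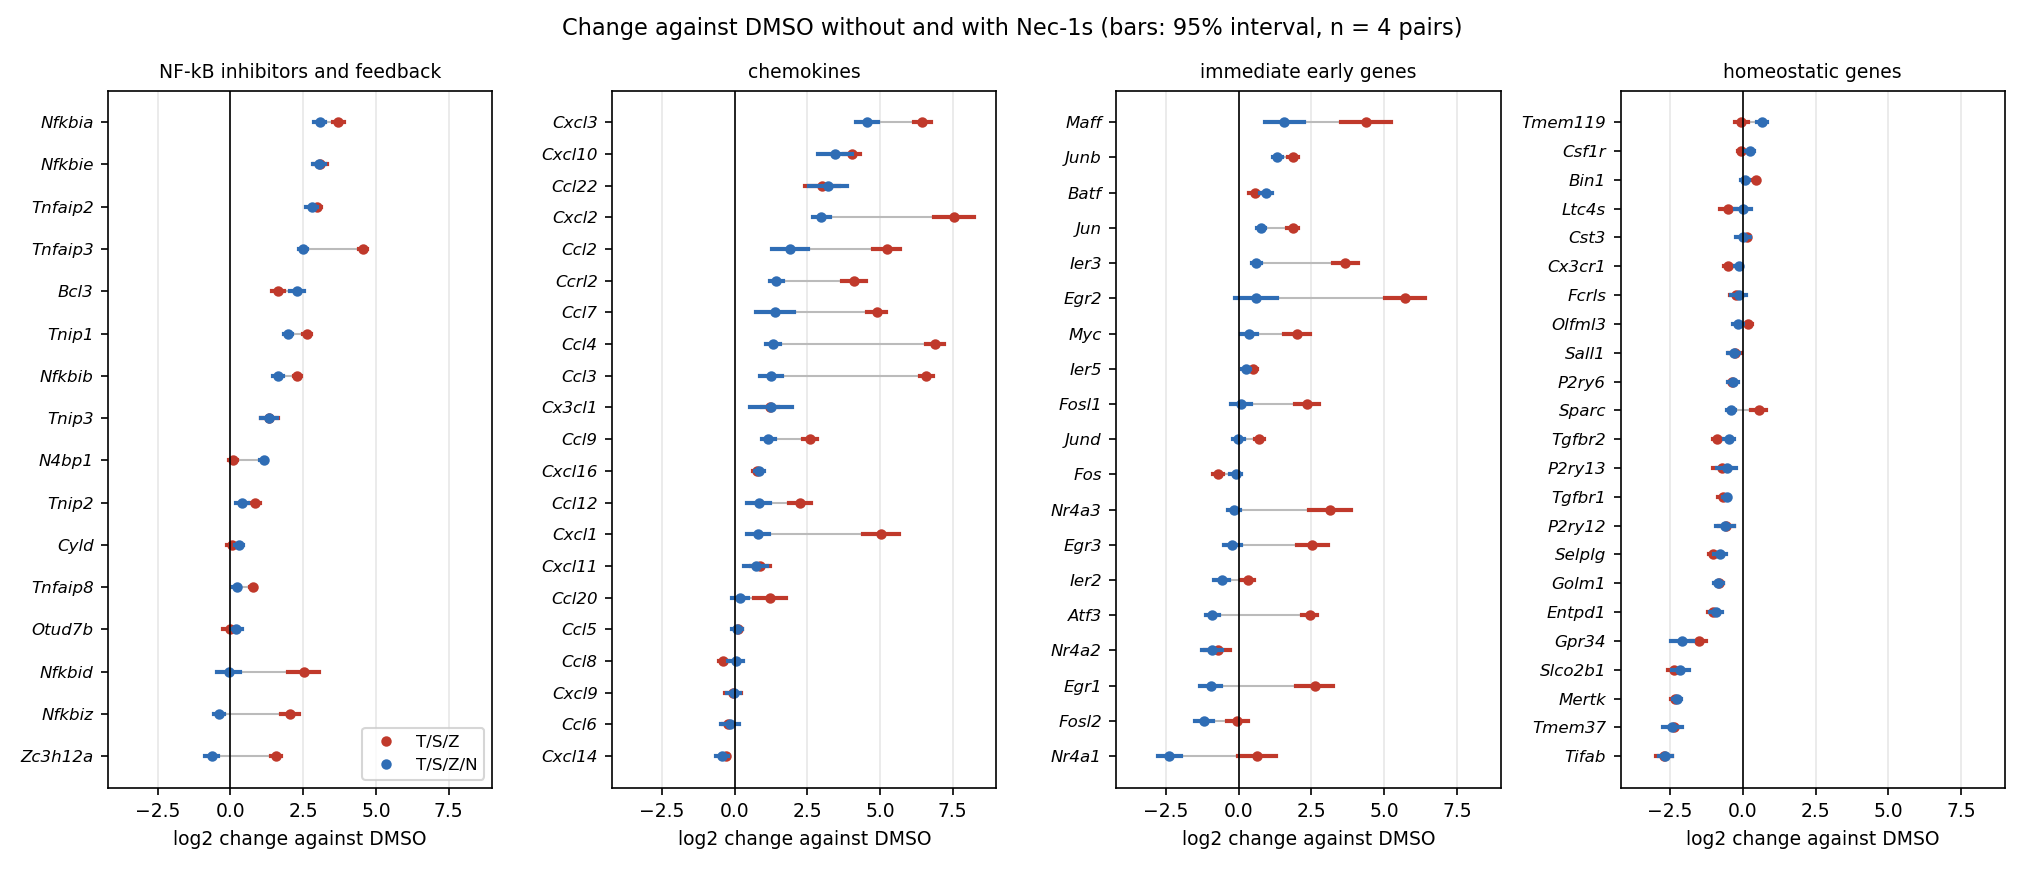
Log2 change against DMSO without Nec-1s (T/S/Z, red) and with it (T/S/Z/N, blue, drawn on top) for members of 4 gene lists. Bars are 95% intervals, from 4 pairs of libraries, and both changes share the DMSO libraries. The 2 changes lie together in Nfkbie (3.09 and 3.06) and Tifab (-2.71 and -2.66), far apart in Ccl3 (6.59 and 1.26), and on opposite sides of 0 in Egr1 (2.61 and -0.95).

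Among secreted cytokines the same range was seen. Tnf itself was at 2.69, 2.80, 3.21 and 2.70 in DMSO, at 9.68, 9.43, 9.06 and 9.46 with T/S/Z and at 4.15, 4.33, 4.81 and 4.61 with T/S/Z/N. It rose by 1.62 (SE 0.0824, limma adjusted p 5.5e-06) with Nec-1s, and the difference from T/S/Z was -4.93 (interval -5.33 to -4.53). Of 18 cytokine and growth factor genes, 5 rose (Pdgfb by 2.26, Tnf, Il6, Lif and Ifnb1) and 2 fell (Osm and Vegfa), and 14 were lower with Nec-1s than with T/S/Z alone, beside 6.72% of all tested genes. Il6 was at -0.88, -0.60, -0.12 and 0.10 in DMSO and at 0.75, 0.56, 0.34 and 0.33 in T/S/Z/N. With negative values set to 0 its change was 0.47, under the fold minimum, against 0.87 as deposited. The call of Ifnb1 was not made against Nec-1s alone (0.55) or without replicate 3 (adjusted p 0.063) or 4 (0.0677), and that of Lif was lost without replicate 1 (0.0553) or 2 (0.068). Of 11 genes of the IL-1 cytokines and inflammasome, 5 rose and none fell. Nlrp3, the inflammasome sensor, rose by 3.07 (4.58 without Nec-1s), Il1rn, the IL-1 receptor antagonist, by 2.14 (5.10), the inflammatory caspase gene Casp4 by 1.51 (1.69) and Il1a by 1.15 (5.71). The Il1a call was lost with ordinary per-gene variance (adjusted p 0.0888).

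Il1b, also in that list, rose by 1.11 (SE 0.321, limma adjusted p 0.0244), but its 4 DMSO libraries ran from 4.67 to 5.79 and overlapped the T/S/Z/N libraries at 5.78 to 6.72. Its call was lost without replicate 1 (adjusted p 0.0691) and without replicate 2 (0.0834). Mir155hg, the host transcript of miR-155, rose by 0.65 and Bhlhe40, a transcription repressor, by 1.80 (3.25 without Nec-1s). The Mir155hg call was lost without replicate 3 (adjusted p 0.0583) and without replicate 4 (change of 0.48). The prostaglandin list did not move as one. Ptgs2, the inducible cyclooxygenase, was at 2.83, 3.03, 2.40 and 2.25 in DMSO and at 2.75, 2.65, 2.81 and 3.07 in T/S/Z/N, overlapping (change 0.19, interval -0.23 to 0.60), although T/S/Z alone raised it by 4.04. Of its 14 members, 2 rose (Ptges and Pla2g4a, by 1.00) and 3 fell (Hpgd, Hpgds by 1.09 and Ptgs1 by 0.85). The Ptgs1 call was lost under at least 1 alternative setting.

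Of 15 inflammation-induced enzymes and transporters, 10 rose and none fell. After Acod1 came Slc7a11, the cystine importer, with a rise of 3.29 (4.06 without Nec-1s), Ch25h, which makes 25-hydroxycholesterol, with 3.11 (6.01), and Sod2, the mitochondrial superoxide dismutase, with 2.82 (3.10). NRF2 governs the antioxidant response, and 9 of its 16 listed targets rose and none fell. Txnrd1 rose by 1.86 (2.27 without Nec-1s), Srxn1 by 1.80 (1.98) and Sqstm1 by 1.67 (2.06), while Nqo1, a classic NRF2 target, gave 0.10 (interval -0.16 to 0.36) at a low level. The median of the list was 0.78 with Nec-1s and 0.84 without.

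Cholesterol synthesis genes rose in 11 of 23 cases and fell in none, and against Nec-1s alone 7 were higher and 1, Dhcr7, was lower, beside 6.28% and 7.59% of all tested genes. Idi1, which isomerises isopentenyl diphosphate, rose by 0.97 with Nec-1s and by 1.37 without. In the list of LXR targets and lipid handling, 1 of 15 rose and 3 fell. Nr1h3, which encodes LXR-alpha itself, was at 3.08, 3.10, 3.03 and 3.10 in DMSO and at 4.99, 4.95, 4.83 and 5.09 in T/S/Z/N, while its target Abcg1, a cholesterol exporter, fell by 1.33 and the lipid droplet gene Plin2 by 1.43. Of 20 glycolysis and HIF-1 genes, 5 rose, among them Slc2a1, the glucose transporter GLUT1, by 1.74 (3.20 without Nec-1s) and Hif1a by 1.32, and 1 fell, Vegfa, by 1.16. Of 13 ER and integrated stress genes, 5 rose, led by Herpud1 (1.90) and Chac1 (1.42). Trib3 was chosen after its values were seen, with a rise of 0.91 against a change of 0.20 without Nec-1s.

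Surface molecules for contact with T cells rose in 9 of 15 cases and fell in none. After Icam1 and Cd40, Cd69 rose by 3.50 (3.80 without Nec-1s) and Icosl, the ligand of ICOS, by 2.69 (1.93), where the level with Nec-1s was higher by 0.76 and passed the test. Toll-like receptors were divided. Tlr1 rose by 2.42 and Tlr2 by 2.06, the receptors that pair to sense bacterial lipopeptides, and Cd14 by 1.38. Tlr8, an endosomal sensor, fell by 1.45, and 7 of 18 members rose and 4 fell in all. Of 10 C-type lectin receptors, 3 rose (Clec4e, Clec5a by 2.75 and Clec4d by 0.94) and none fell. The members of the BCL-2 family that rose were the Bcl2a1 genes and Pmaip1, the BH3-only gene Noxa (4 of 16). The Bcl2a1 genes are near-identical copies that may share reads, so they are not separate rises. The Pmaip1 call was lost under at least 1 alternative setting. Those that fell were Bmf and Bcl2l11, the BH3-only genes Bmf and Bim (2 of 16), by 1.06 and 0.85.

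Of 30 type I interferon-stimulated genes, 3 rose, Parp14 by 0.78, Ifit1 by 0.77 and Rsad2 by 0.64, and none fell. All 3 calls were lost with ordinary per-gene variance (adjusted p 0.0662, 0.0957 and 0.0886), and those of Ifit1 and Rsad2 were under the fold minimum without replicate 4 (0.56 and 0.46). Of 13 interferon-inducible GTPases with Irf1, 2 rose, Gbp5 by 1.58 and Irf1 by 1.26. Of 18 genes of MHC class I presentation, only the proteasome activator Psme2 rose, by 0.77.

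Homeostatic genes, which mark resting microglia, fell in 10 of 25 cases and rose in 1. Mertk, a receptor for the uptake of dying cells, was at 5.03, 5.02, 5.08 and 5.16 in DMSO, at 2.73, 2.79, 2.81 and 2.66 with T/S/Z and at 2.84, 2.77, 2.81 and 2.81 with T/S/Z/N. It fell by 2.26 (SE 0.0572, limma adjusted p 4.67e-07), and the levels with and without Nec-1s overlapped (interval of the difference -0.07 to 0.20). P2ry12, the ADP receptor that is a classic marker of the class, fell by 0.61, a call lost without replicate 3 (-0.44). Cx3cr1 gave -0.14 and did not pass. Tmem119, the 1 that rose, had 3.44, 3.29, 3.51 and 3.03 in DMSO and 4.03, 4.03, 3.98 and 3.89 in T/S/Z/N, a rise of 0.67 that became 0.52, under the fold minimum, against Nec-1s alone. Of 22 genes of disease-associated microglia, none rose and 1 fell (Ank, by 1.06).

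Genes of the FOXO type, which are switched on when growth signalling is low, fell in 12 of 21 cases and rose in 1 (Cited2, by 0.99). Rassf3, Tsc22d3 (fell by 2.14), which encodes the glucocorticoid-induced GILZ, and Arrdc3 (fell by 2.06) led them. Txnip, which names the list, fell by 0.61 with Nec-1s (-0.58, under the fold minimum, without replicate 4) and by 1.98 without. Immediate early genes divided evenly, with 5 of 19 higher and 5 lower and a median of -0.01, against a median of 1.87 without Nec-1s. Maff (1.57) and Junb (1.33) rose most, and Nr4a1, Fosl2 (fell by 1.18), Egr1 (fell by 0.95) and Nr4a2 (fell by 0.92) fell. The calls of Maff, Egr1 and Nr4a2 were lost with ordinary per-gene variance (adjusted p 0.0916, 0.0668 and 0.0588). Egr2, which T/S/Z raised by 5.72, was at 1.84, 1.64, 1.08 and 0.94 in DMSO and at 1.57, 1.68, 1.73 and 2.86 in T/S/Z/N, overlapping.

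Among 11 MAP kinase phosphatases and related inhibitors, 4 rose, led by Dusp2 (2.11, and 1.92 without Nec-1s) and Dusp4 (1.88, and 3.83 without). In the same list 2 fell, Dusp6 by 1.36 and Spry2 by 0.72, and the Spry2 call was lost under at least 1 alternative setting. Of 9 RGS genes, which shorten G-protein signalling, 1 rose (Rgs3, by 1.23) and 3 fell (Rgs2, Rgs1 by 1.42 and Rgs14 by 0.62). Without replicate 4, Rgs14 gave -0.52, under the fold minimum. Of 17 cell cycle genes, none rose and 5 fell, led by Arhgap19 (fell by 3.03) and the replication helicase gene Mcm6 (fell by 0.80). The calls of Cdk1 and Mcm7, also among the fallen, were each lost under at least 1 alternative setting. Of 20 ribosome biogenesis genes none was called in either direction, with 2.01 for Myc under T/S/Z and 0.35 under T/S/Z/N. Of 24 lysosome and V-ATPase genes, none rose and 4 fell, among them Atp6v0d2 (by 0.77) and Tfeb (by 0.62). Without replicate 1, Tfeb gave -0.54, and with 5 in place of 1 in the log Atp6v0d2 gave -0.39, both under the fold minimum.

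Because T/S/Z against DMSO and T/S/Z/N against Nec-1s alone have no library in common, their calls could be set against each other. T/S/Z changed 3118 genes against DMSO, 29.6% of those tested (12.2% higher and 17.5% lower). Of the 661 genes higher in T/S/Z/N than in Nec-1s alone, 558 were also higher with T/S/Z, which is 84.4% of the first list and 43.6% of the 1280 genes of the second. Of the 799 lower genes, 644 were also lower with T/S/Z, 80.6% of the first list and 35.0% of 1838. Another 15.3% of the higher genes were not called with T/S/Z. Among them N4bp1, Map3k14, Trib3 and, subject to the setting given above, Birc2 were also higher than with T/S/Z. Nor were 17.5% of the lower genes called with T/S/Z. Among these, Vegfa and, subject to the settings given above, Nr4a1 were also lower than with T/S/Z. Others only just missed the T/S/Z call, and their T/S/Z/N and T/S/Z levels gave no call. Asns gave 0.59 with T/S/Z/N against Nec-1s alone and 0.53 with T/S/Z, and Traf6 0.61 and 0.525. P2ry12 gave -0.67 and -0.56, and Cdk1 -0.795 and -0.56.

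Some genes were called in opposite directions. There were 15 that T/S/Z raised and that T/S/Z/N left below Nec-1s alone, and 2 the other way (Il21r and Gm9762). The T/S/Z call of Gm9762 was lost without the replicate block (adjusted p 0.0679) and under most other settings. The call of Il21r in T/S/Z/N against DMSO was lost under at least 1 alternative setting. The 15 were Rgs1, Klf2, Fabp4, Bhlhe41, Egr1, Osm, Atf3, F3, Nes, Tent5c, Hbegf, Bcar3, Map3k8, Spry2 and Ccr1, a list drawn from the calls themselves. Rgs1, a regulator of chemokine receptor signalling, was at 4.47, 4.81, 4.39 and 4.22 in DMSO, at 4.35, 4.65, 4.17 and 4.19 with Nec-1s, at 7.02, 6.87, 7.36 and 7.97 with T/S/Z and at 3.29, 3.35, 3.00 and 2.54 with T/S/Z/N. Every T/S/Z/N library lay below every control library of both kinds, and every T/S/Z library above them.

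The same order of groups held for Osm, oncostatin M, which averaged 3.52 ± 0.103 (SD, n = 4) in DMSO, 6.99 ± 0.483 with T/S/Z and 2.56 ± 0.242 with T/S/Z/N. Atf3, a stress-induced repressor, was at 7.52 to 7.66, 9.62 to 10.33 and 6.47 to 7.06 in the same groups and carries the confounded mark. Klf2, a factor of quiescent cells, averaged 2.67 ± 0.183, 3.45 ± 0.209 and 1.59 ± 0.0783. Of the 15 genes, 13 to 15 kept both calls under median centring, ordinary per-gene variance and without replicates 1, 2 or 3, 11 without replicate 4, 10 with quantile normalization, 7 when genes with a mean under 3 were left out and 3 with 5 in place of 1 in the log. The number of such genes was 25 with 0.5 in place of 1 and 21 without replicate 2, the 15 included.

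**Figure D4:**
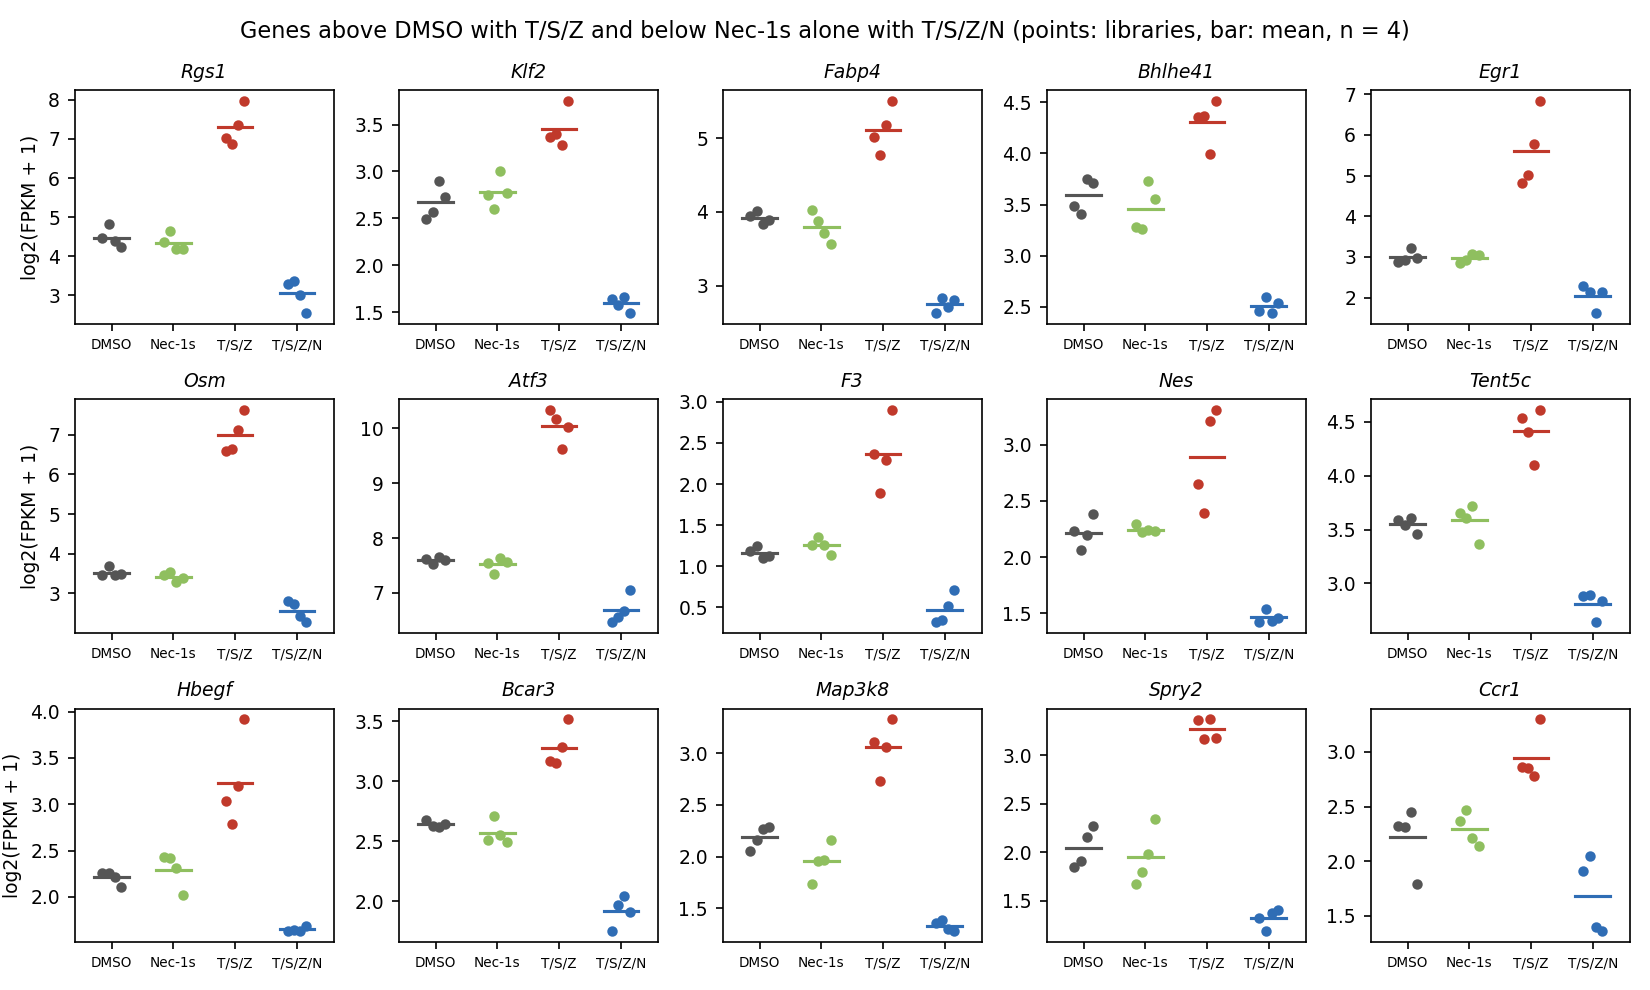
Deposited log2(FPKM + 1) by library in DMSO, Nec-1s, T/S/Z and T/S/Z/N for the 15 genes called higher with T/S/Z than with DMSO and lower with T/S/Z/N than with Nec-1s alone. Points are libraries and bars are means of 4, with a separate y axis for each gene that does not start at 0. Rgs1 runs from 4.22 to 4.81 in DMSO, from 6.87 to 7.97 with T/S/Z and from 2.54 to 3.35 with T/S/Z/N.

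T/5z/N is the other group of the table that combines TNF with Nec-1s, with the TNF signal cut at TAK1. T/S/Z/N differed from it in 356 genes (3.38% of those tested), 189 higher and 167 lower. Interferon-inducible GTPases stood out on the lower side, with 8 of 13 lower in T/S/Z/N against 1.59% of all tested genes. Type I interferon-stimulated genes were also lower there in 6 of 30 cases and higher in none. Gbp5 was at 2.70, 2.70, 2.94 and 2.89 in T/S/Z/N and at 5.01, 4.94, 4.66 and 5.21 in T/5z/N, a difference of -2.15 (SE 0.0952, limma adjusted p 4.74e-06), and Irf1 differed by -0.99. On the higher side, against 1.80% of all tested genes, were 6 of 11 MAP kinase phosphatases, 4 of 11 IL-1 and inflammasome genes, 6 of 18 cytokine genes, 6 of 20 glycolysis genes, 4 of 15 inflammation-induced enzymes and 4 of 16 NRF2 targets. Of 19 immediate early genes, 4 were higher and 2 lower, and of 14 prostaglandin genes, 3 were higher and 1 lower. Dusp4, a nuclear phosphatase of ERK, was at 3.68, 3.80, 4.15 and 4.24 in T/S/Z/N and at 2.18, 2.11, 2.05 and 2.15 in T/5z/N. Cxcl2 and Cxcl3 were higher in T/S/Z/N by 1.97 and 1.95, whereas Cxcl1 was lower by 0.92.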

How the data were processed

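The authors processed the reads in OmicSoft Array Studio 10.1.1.3 and deposited log2 values of FPKM with 1 added. The aligner, genome build and annotation release are not given in the sources used here. The deposited annotation has GRCm38 coordinates. The upper quartile was 4.14 to 4.16 in all 8 libraries. In replicates 1 to 3, per-gene means across the 6 treatments matched replicate 4 within 6.67e-05, an undescribed adjustment that leaves paired differences intact but narrows the spread within groups.

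Groups were compared by limma 3.58.1 in R 4.3.3, with eBayes(trend = TRUE), on the 8 libraries of each comparison, with the replicate number as a block since the study's own test was paired. Pairing rests on the replicate numbers in the labels. Same-numbered deviations of DMSO and T/S/Z/N correlated between -0.341 and -0.225, which says nothing here because the adjustment forces them to cancel. Tests were 2-sided, and the fit was checked on simulated data. The members, the 30 gene lists and the tests were chosen with earlier results of these data known. Named were the 12 largest rises and 12 largest falls that kept their direction in 4 of 4 pairs (predicted genes and pseudogenes left out), up to 4 called members a list, members that give a list its name, and genes of the study. The astrocyte libraries were not used here. Promoters are from RefSeq. A few members of the lists are not reported here by name, though the counts include them.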

Additional observations from a re-analysis of the deposited data

Results flagged for a closer look

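Single libraries stood apart from the other 3 of their group in 11 of the 336 groups of 4 examined (3.27%), where chance alone gives about 1 in 20. In T/S/Z/N, replicate 4 stood apart for Hgf (2.06, nearest 2.28), Fas (4.45, nearest 4.02), Cd69 (5.58, nearest 5.31), Egr2 (2.86, nearest 1.73), Nqo1 (1.3, nearest 0.86) and Hbegf (1.69, nearest 1.64). In DMSO the flagged values were Osm in replicate 2 (3.68, nearest 3.49), Ifit1 in replicate 4 (3.27, nearest 3.73), Cd14 in replicate 1 (9.77, nearest 9.99), Clec4d in replicate 4 (8.62, nearest 8.70) and Chac1 in replicate 3 (0.66, nearest 0.86).

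Of the 24 genes with the largest changes, 10 differed between T/S/Z/N and T/5z/N by the limma test of that difference, beside 3.38% of all tested genes. The 24 were chosen for their T/S/Z/N values in these same libraries, which favours such a difference in the direction of the change, so the count is a description. Higher in T/S/Z/N were Ptges by 0.71, Traf1 by 0.64, Cxcl3 by 1.95, Gpr84 by 1.51, Ifi205 by 0.59, Socs3 by 1.85 and Gpr132 by 0.88. Arhgap19, Engase and Rnf144b were lower, with differences of -1.19, -0.96 and -1.41.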

How the results depend on the processing

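The worth of 1 read is known for replicate 4 only, and changes of low genes depend on the constant added before the log. With 5 added, the calls were 861 for T/S/Z/N against DMSO, 833 against Nec-1s, 514 against T/S/Z, 1633 for T/S/Z against DMSO and 159 for T/S/Z/N against T/5z/N, and among genes with a mean log2 of at least 3 they were 915, 897, 628, 1705 and 227. A fold minimum of 2 left 596, 590, 335, 1202 and 72. These 3 settings test fewer genes, shrink low changes or raise the threshold by construction. Leaving out 1 replicate gave 1397 to 1572, 1353 to 1539, 1216 to 1375, 2930 to 3199 and 350 to 376 calls. Nec-1s alone against DMSO gave 0 to 1 calls, the 1 being without replicate 4. The undescribed adjustment of the deposited values had already equalised the replicate means over the treatments, which left the replicate block little to remove. Dropping the block therefore cannot show whether offsets between replicates mattered. Without the replicate block T/S/Z/N against DMSO gave 1482 calls, and the block changed no call of a named gene in that comparison. Of the 117 genes called there that are the largest changes, the top members of a list or genes of the study, 16 lost their call under at least 1 of 15 alternatives (Il1a, Maff, Rgs14, Klf2, Parp14, Ifit1, Rsad2, Cdk1, Mcm7, Atp6v0d2, Tfeb, Npc1, Cxcl1, Ccl2, Il6 and Mir155hg). So did Il1b, Txnip, P2ry12, Tmem119, Zc3h12a, Egr1, F3, Il21r, Lif, Ifnb1, Ptgs1, Pmaip1, Nr4a2, Spry2, Nes, Tent5c, Bcar3 and Map3k8, and none reversed. These were named outside that rule, Il1b among them although the study also names it.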
